A study of Mus musculus with 4 samples.

Results

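A set of 241 KAP1 summits in mouse regulatory T cells lay within reach of the ends of at least 2 protein-coding genes at once. They were chosen by position alone. A replicate 1 summit was kept when a replicate 2 summit lay within 200 bp of it on chromosomes 1 to 19. It also had to lie within 1000 bp of the start or end coordinate of 2 or more different coding genes of the NCBI RefSeq table of GRCm38.p6, the assembly called mm10. Of 7641 shared summits, 241 met this rule, which is 3.15% (Wilson 95% interval 2.79 to 3.57%). Another 1476 lay at the end of 1 coding gene, called single-end summits here, and 5924 lay at no coding end. The 241 are called two-end summits below. They involved 458 genes in 231 pairs or groups, where 10 pairs held 2 summits each, 1 summit lay at 3 genes and 5 genes belonged to 2 different pairs.

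The chromatin came from splenic regulatory T cells of C57BL/6 mice that were sorted and then grown for 2 weeks. An anti-KAP1 antibody was used on 2 samples, and 2 inputs had none. Each KAP1 sample has its own list of peak summits, with 8862 entries in replicate 1 and 79515 in replicate 2, while the inputs were not analysed here. No label tells if separate animals or cultures gave the replicates, so their differences may be technical, and the depth of the lists is unknown.

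KAP1 (TRIM28) is a corepressor without DNA-binding specificity of its own, which KRAB zinc finger proteins bring to DNA. It then recruits histone methylation and deacetylation enzymes, and it is best known for silencing transposable elements and imprinted loci. A pair of genes read away from each other from neighbouring starts shares a bidirectional promoter, a common arrangement among housekeeping genes, usually within a CpG island. Here a pair is called divergent where both ends near the summit are starts, tandem where they are a start and a stop, and convergent where both are stops.

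The strongest divergent and tandem sites whose summit fell inside an annotated promoter window are shown first, because their letters bear on the results below. Each window runs 5′ to 3′ on the strand of its gene, from 250 bases before to 50 bases after the annotated start, so that the start is base 251 of 300. Capitals mark a run of at least 10 A or 10 T, or the ETS letters CCGGAAG and their reverse complement CTTCCGG. Sequences are from RefSeq on GRCm38.p6.

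The 5 highest-ranking divergent windows were those of Mrpl30 at chr1:37890227-37890526 on the plus strand, Eif3k at chr7:28981839-28982138 on the minus strand, Gm4925 at chr10:88731052-88731351 on the minus strand, Rsrc2 at chr5:123749365-123749664 on the minus strand and Zdhhc6 at chr19:55315987-55316286 on the minus strand.
Mrpl30 window: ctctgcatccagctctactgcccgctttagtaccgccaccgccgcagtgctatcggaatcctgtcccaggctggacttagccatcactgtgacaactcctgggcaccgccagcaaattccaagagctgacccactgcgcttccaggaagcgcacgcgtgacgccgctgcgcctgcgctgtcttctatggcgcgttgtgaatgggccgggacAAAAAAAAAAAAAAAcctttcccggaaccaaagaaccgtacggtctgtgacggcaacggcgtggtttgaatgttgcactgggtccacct
Eif3k window: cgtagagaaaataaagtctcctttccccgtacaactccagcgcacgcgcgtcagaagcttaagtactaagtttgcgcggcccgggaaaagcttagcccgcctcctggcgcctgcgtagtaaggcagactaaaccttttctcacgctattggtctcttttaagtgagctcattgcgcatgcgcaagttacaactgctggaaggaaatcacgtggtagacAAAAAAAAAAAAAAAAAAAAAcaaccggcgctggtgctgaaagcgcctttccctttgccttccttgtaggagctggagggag
Gm4925 window: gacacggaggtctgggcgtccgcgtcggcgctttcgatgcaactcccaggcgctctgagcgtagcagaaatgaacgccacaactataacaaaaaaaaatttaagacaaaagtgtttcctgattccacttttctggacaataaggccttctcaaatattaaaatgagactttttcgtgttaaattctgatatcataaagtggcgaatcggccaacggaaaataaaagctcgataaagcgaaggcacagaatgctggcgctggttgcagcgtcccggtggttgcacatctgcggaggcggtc
Rsrc2 window: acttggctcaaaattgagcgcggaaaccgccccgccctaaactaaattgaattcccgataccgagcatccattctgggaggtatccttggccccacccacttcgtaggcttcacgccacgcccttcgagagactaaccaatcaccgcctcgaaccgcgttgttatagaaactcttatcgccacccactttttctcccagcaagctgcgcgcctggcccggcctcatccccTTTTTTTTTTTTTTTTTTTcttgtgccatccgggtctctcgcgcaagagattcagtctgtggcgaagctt
Zdhhc6 window: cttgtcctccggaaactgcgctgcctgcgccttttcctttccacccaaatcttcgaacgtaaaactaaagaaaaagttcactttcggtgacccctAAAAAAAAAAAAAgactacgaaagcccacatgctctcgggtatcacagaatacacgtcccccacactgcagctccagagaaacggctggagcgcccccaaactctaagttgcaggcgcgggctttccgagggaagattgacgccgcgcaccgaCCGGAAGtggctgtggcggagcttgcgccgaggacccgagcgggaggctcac

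The 2 highest-ranking tandem windows were those of Prr12 at chr7:45053285-45053584 and Dnlz at chr2:26352061-26352360, both on the minus strand.
Prr12 window: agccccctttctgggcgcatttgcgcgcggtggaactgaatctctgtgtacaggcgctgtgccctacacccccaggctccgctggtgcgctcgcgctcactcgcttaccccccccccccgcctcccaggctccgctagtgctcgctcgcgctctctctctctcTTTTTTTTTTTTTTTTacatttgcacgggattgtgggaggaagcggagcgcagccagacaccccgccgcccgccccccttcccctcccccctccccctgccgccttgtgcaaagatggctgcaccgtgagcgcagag
Dnlz window: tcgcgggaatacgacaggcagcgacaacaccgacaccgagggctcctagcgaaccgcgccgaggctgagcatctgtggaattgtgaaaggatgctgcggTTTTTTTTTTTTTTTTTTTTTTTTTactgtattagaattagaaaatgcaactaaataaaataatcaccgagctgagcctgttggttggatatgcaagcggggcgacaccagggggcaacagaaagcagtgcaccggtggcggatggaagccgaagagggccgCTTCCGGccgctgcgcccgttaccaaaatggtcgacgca

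Of the divergent windows with the ETS letters and no run, the 3 highest-ranking with 1 window per gene pair were those of Zcwpw2 at chr9:118040810-118041109 on the minus strand, Ints12 at chr3:133091605-133091904 on the plus strand and Gin1 at chr1:97769922-97770221 on the plus strand.
Zcwpw2 window: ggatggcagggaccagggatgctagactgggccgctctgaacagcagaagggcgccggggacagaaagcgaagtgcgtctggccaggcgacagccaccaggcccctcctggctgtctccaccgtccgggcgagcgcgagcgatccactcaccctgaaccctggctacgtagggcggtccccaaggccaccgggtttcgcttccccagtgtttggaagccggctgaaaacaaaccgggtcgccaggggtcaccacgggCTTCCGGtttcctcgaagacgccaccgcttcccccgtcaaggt
Ints12 window: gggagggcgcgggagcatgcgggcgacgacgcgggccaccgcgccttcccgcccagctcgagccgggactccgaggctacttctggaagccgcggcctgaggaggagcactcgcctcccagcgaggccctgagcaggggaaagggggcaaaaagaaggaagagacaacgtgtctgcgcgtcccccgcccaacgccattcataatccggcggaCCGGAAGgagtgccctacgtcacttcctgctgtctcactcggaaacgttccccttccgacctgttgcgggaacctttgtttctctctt
Gin1 window: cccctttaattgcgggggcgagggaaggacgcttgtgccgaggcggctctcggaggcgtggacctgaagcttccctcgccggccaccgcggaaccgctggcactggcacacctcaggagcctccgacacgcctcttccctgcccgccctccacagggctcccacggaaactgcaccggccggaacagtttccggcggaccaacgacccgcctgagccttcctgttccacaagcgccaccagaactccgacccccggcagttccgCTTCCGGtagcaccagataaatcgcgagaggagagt

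In the Mrpl30 window the summit was base 286, and the start of its divergent partner Mitd1 was base 185. A run of 15 A lay between them, at bases 212 to 226. The Eif3k summit was base 297, with a run of 21 A at bases 219 to 239 and the Map4k1 start at base 89. The Zdhhc6 summit was base 163, after a run of 13 A at bases 96 to 108. In these windows the summit lay to the 3′ side of a run of A, and in the windows of Rsrc2, Prr12 and Dnlz it lay to the 5′ side of a run of T. The Rsrc2 summit was base 204 with 19 T at bases 231 to 249. The Prr12 summit was base 147 with 16 T at bases 164 to 179. The Dnlz summit was base 66 with 25 T at bases 100 to 124. Read on the strand where the run is A, all 6 summits were therefore on the same side. The Gm4925 window had no run of 10, its longest being 9. Among the windows with ETS letters and no run, the Gin1 summit was base 227 with the letters starting at base 265, and the Ints12 summit was base 292 with the letters at base 213. The Zcwpw2 summit, at base 25, was far from its ETS letters at base 258.

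Ranked by the mean percentile of the authors' 2 scores, each a −log10 of either p or q within its own list, the first sites lay at genes of many roles. The highest was on chromosome 14 at position 31019576, scoring 65.5 in replicate 1 and 92.2 in replicate 2. It lay 438 bp inside Pbrm1, which encodes the BAF180 subunit of the PBAF chromatin remodelling complex, and 445 bp from the start of Gnl3, the nucleolar GTPase nucleostemin. These starts are 7 bp apart. The Mrpl30 and Mitd1 site at position 37890512 of chromosome 1 scored 59.0 and 109.1. Mrpl30 encodes a protein of the large mitochondrial ribosomal subunit, and its start was 35 bp from the summit. The site of Eif3k, a subunit of translation initiation factor eIF3, and Map4k1, the kinase HPK1 that restrains T cell receptor signalling, scored 57.6 and 70.8 at position 28981842 of chromosome 7. Its summit lay 48 bp inside Eif3k and 208 bp from the Map4k1 start.

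Other sites among the first 12 were as follows. Between Samd1 and Prkaca, which encodes a catalytic subunit of protein kinase A, scores were 55.9 and 69.5, with no strand recorded for Samd1. Between the start of Prr12 and the stop of Prrg2, scores were 51.9 and 81.2. At Card9, an adaptor of innate immune signalling, and Dnlz, a mitochondrial co-chaperone, scores were 45.3 and 79.5. The summit there lay 108 bp inside the stop of Card9 and 185 bp from the start of Dnlz. Nt5m, a mitochondrial deoxynucleotidase, and Cops3, a subunit of the COP9 signalosome, had scores of 42.1 and 43.9. The predicted gene Gm4925 and the Golgi GTPase gene Arl1 had 43.7 and 38.9. At Gm52006 and Zfp36l1, an RNA-binding protein that promotes mRNA decay, the values were 37.1 and 82.1, and the summit lay 408 bp outside the Zfp36l1 start. Fam174c and Cirbp, a cold-inducible RNA-binding protein, had 38.5 and 51.0. At Rsrc2 and Kntc1, a kinetochore protein of the spindle checkpoint, scores were 35.8 and 48.9. The palmitoyltransferase gene Zdhhc6 and the SNARE gene Vti1a, with starts 6 bp apart, had 32.8 and 45.3. Of these 12 sites, 7 were divergent, 4 were tandem and 1 had no known orientation.

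The plot of scores by orientation shows two-end summits from near the lowest scores of the shared set up to high ones, but not at its highest. In replicate 1 they ran from 1.48 to 65.5 with a median of 8.34 (quartiles 5.10 and 13.2), and in replicate 2 from 3.35 to 109.1 with a median of 11.6 (quartiles 7.21 and 21.5). Single-end summits had medians of 8.34 and 13.2, and shared summits at no coding end 8.34 and 12.3, with quartiles that overlapped widely. The highest scores were 136.6 and 145.4 among single-end summits and 146.6 and 153.6 at no coding end, above the highest of the members. Among two-end summits 11.6% were in the highest-scoring 10% of replicate 1 (8.16 to 16.3%), against 14.0% of single-end (12.3 to 15.9%) and 10.9% of the remaining shared summits (10.1 to 11.7%). In replicate 2 these shares were 37.3%, 43.0% and 38.6%. Both scores were at or above their list median at 130 of the 241 sites. With both lists cut to such scores, 4219 summits were shared, against 7641 without the cut. Two-end summits were 3.08% of the former and 3.15% of the latter, so members were much like shared summits in general here. Replicate 1 scores took few values, and 35 members had exactly 5.10. The 2 summits of a member were a median of 5 bp apart and on the same base at 30 members. The lowest ranks were those of Imp4 and Ccdc115 (2.31 and 4.28), Gm10840 and Limd2 (1.48 and 4.23) and Mblac2 and Polr3g (2.31 and 3.35).

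**Figure D1:**
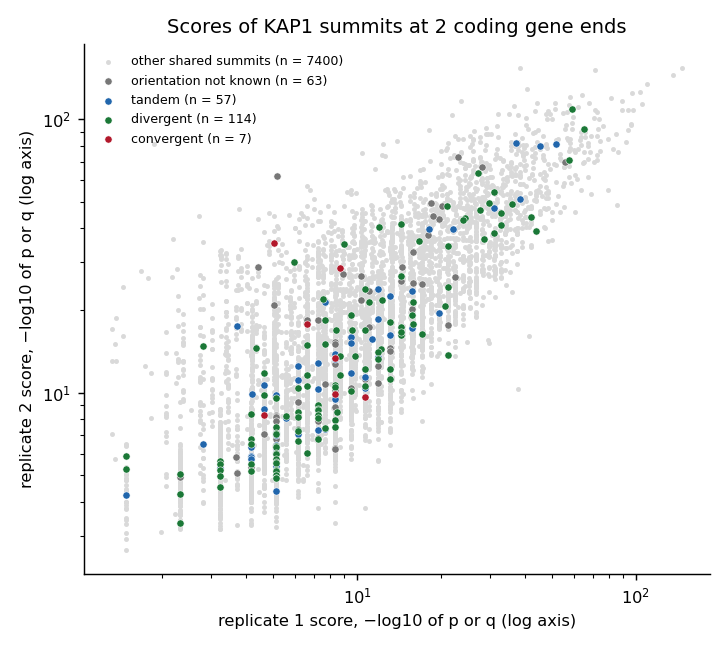
Authors' scores of shared KAP1 summits in replicate 1 (horizontal, log axis) and replicate 2 (vertical, log axis), with the 241 two-end summits coloured by the orientation of their genes over the 7400 other shared summits in grey. Members of each orientation lie among the other summits, and the vertical stripes are replicate 1 scores that many summits share.

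Orientation, which the rule did not use, was known for 178 of the 241 sites. A strand was recorded for 385 of the 458 genes, from the promoter table. The class follows the kinds of the ends, so strands can differ from the usual arrangement. There was 1 divergent site with both genes on 1 strand, and there were 2 tandem sites with genes on opposite strands. Of the 178, 114 were divergent (64.0%, interval 56.8 to 70.7%), 57 were tandem (32.0%, 25.6 to 39.2%) and 7 were convergent (3.93%, 1.92 to 7.89%). The annotation holds similar numbers of each arrangement among neighbouring coding ends up to 2000 bp apart. A shared summit within 1000 bp of both ends was found at 109 of 1058 divergent pairs (10.3%, 8.61 to 12.3%). It was found at 57 of 1109 tandem pairs (5.14%, 3.99 to 6.60%) and at 7 of 1129 convergent pairs (0.62%, 0.301 to 1.27%). Over all 5055 pairs, strand known or not, the count was 234 (4.63%). Among summits of each list alone, the shares of divergent, tandem and convergent pairs were 12.1%, 5.50% and 0.620% in replicate 1 and 19.6%, 9.56% and 4.69% in replicate 2. The same order held in both lists, but both contain the shared summits, so they are not separate evidence for it. In replicate 1 alone 259 pairs had a summit, and 234 of these were the pairs with a shared summit. Sites and gene pairs of these libraries are not replicates, so the intervals cover counting error only and no test was made.

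Divergent ends lie closer together than tandem ends, with a median distance of 173 bp against 940 bp, and the stretch from which a summit reaches both ends shrinks as the ends move apart. Among ends at most 200 bp apart, a shared summit was found at 72 of 559 divergent pairs (12.9%, 10.4 to 15.9%) and 16 of 141 tandem pairs (11.3%, 7.11 to 17.6%), so that the intervals overlapped. Of the 350 convergent pairs this close, 2 had one (0.571%, 0.157 to 2.06%). Above 200 and up to 500 bp the shares were 11.4% for divergent and 10.2% for tandem pairs, and above 500 and up to 1000 bp they were 5.26% and 6.20%. Within each range of distance the divergent and tandem intervals overlapped, unlike in the pooled count, while convergent pairs stayed at 2.26% or less in every range.

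**Figure D2:**
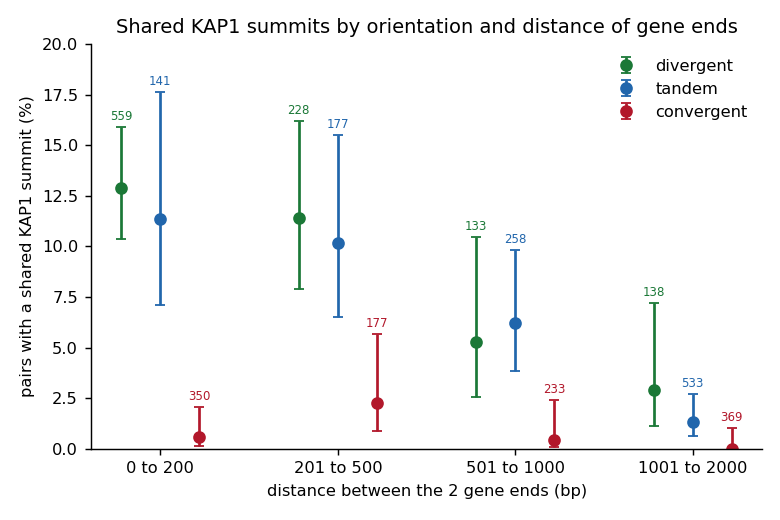
Share of neighbouring coding gene end pairs with a shared KAP1 summit within 1000 bp of both ends, by the distance between the ends and by orientation. Points are percentages, bars are Wilson 95% intervals and the small numbers are pairs. Divergent and tandem intervals overlap in all 4 ranges, and convergent pairs are lowest in each.

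Counted by single ends, starts held shared summits more often than stops, at 1284 of 16457 starts (7.8%) and 216 of 16457 stops (1.31%). A start with another start within 2000 bp had a shared summit in 238 of 1898 cases (12.5%, 11.1 to 14.1%). For a start beside a stop the count was 82 of 898 (9.13%, 7.42 to 11.2%), and for a start with no coding end nearby it was 897 of 13134 (6.83%, 6.41 to 7.27%). In replicate 2 alone these shares were 24.3%, 18.7% and 15.4%, and in replicate 1 alone 14.5%, 9.58% and 7.64%. Stops had a shared summit in 60 of 907 cases when a start was near (6.62%, 5.17 to 8.42%) but in 120 of 12884 with no coding end nearby (0.931%) and 17 of 1981 beside another stop (0.858%). In replicate 1 alone these shares were 7.06%, 1.03% and 0.858%. In replicate 2 alone they were 15.1%, 7.79% and 8.48%, so the contrast was smaller in the longer list as a ratio, but not as a difference. Of the ends at two-end summits with a known strand, 327 of 408 were starts.

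Of the 241 summits 63 lay in the space between their genes (26.1%). Another 163 lay inside 1 of the genes, 13 inside both and 2 outside both but not between them. The 2 ends were a median of 202 bp apart, short beside the 1000 bp reach of the rule. No share expected from position alone was worked out, so these counts do not show that summits avoid the space. At 62 sites, of 59 pairs, the genes overlap, so that no space separates them. Among separate divergent genes 12 of 76 summits were between the starts, against 29 of 55 between separate tandem genes. The space was also smaller at the former, with a median of 88.5 bp between the ends against 359 bp. The nearer end was a median of 181 bp away (range 1 to 934 bp) and the second end 468 bp. At 85 sites the nearer end was within 100 bp. For divergent sites the count within 100 bp of the nearer start was 42 of 114. At tandem sites the median distance was 240 bp to the start and 397 bp to the stop, and the start was the nearer end at 34 of 57.

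**Figure D3:**
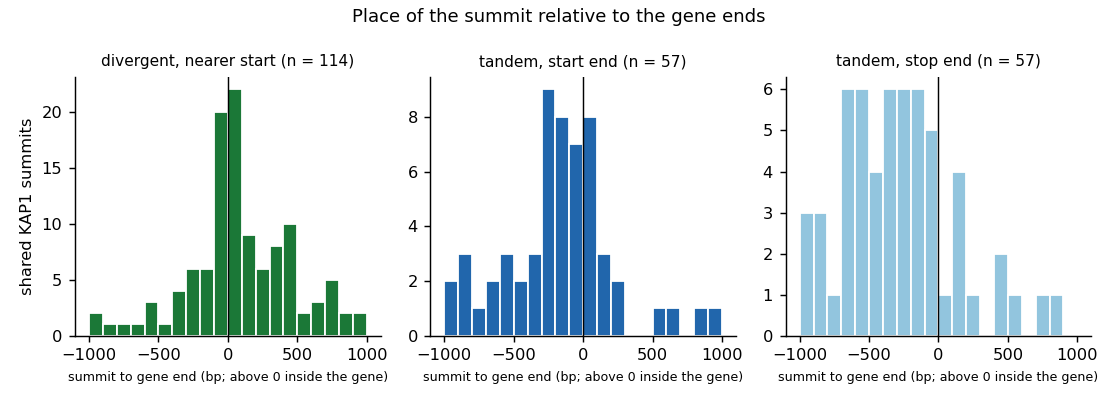
Distance from each two-end summit to a gene end in bp, with values above 0 inside the gene, in bins of 100 bp. The panels show the nearer start of 114 divergent sites and the start and the stop of 57 tandem sites. Divergent counts peak in the bins on both sides of the start, and tandem counts are spread more widely around the stop than around the start.

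The extremes of spacing show how varied the sites were. Ends 2 bp apart were found at Gm27021 and 1190005I06Rik (scores 8.34 and 13.3) and at Fdxacb1 and 1110032A03Rik (8.34 and 7.99). Dtl, a substrate receptor of the CRL4 ubiquitin ligase, and Ints7, an Integrator subunit, have starts 4 bp apart, and the summit lay 561 bp inside Ints7 with scores of 7.64 and 7.45. The widest spacing was 1654 bp, between the stop of Cdk2, the cyclin-dependent kinase of S phase entry, and the start of the endosomal GTPase gene Rab5b, with scores of 11.3 and 15.7. The next were Cntnap1 and Ccr10, a chemokine receptor, at 1619 bp (11.9 and 12.6), and Lipe and Cxcl17 at 1567 bp (6.64 and 18.5). The site with 3 genes lay 118 bp inside Tomm6, a subunit of the outer mitochondrial membrane translocase, and near Prickle4 and Frs3, with scores of 15.7 and 17.3. At the threshold, the last members inside were Gmfg and Samd4b with the second end at 1000 bp (6.16 and 6.67), Dazap1 and Gamt at 998 bp (5.92 and 29.9) and Mrpl43 and Twnk at 993 bp (5.10 and 5.23). The first outside were Chek2 and Hscb at 1001 bp (31.3 and 31.9) and Nt5c and Armc7 at 1010 bp (5.10 and 8.29).

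The 7 convergent sites, where stops face each other, had replicate 1 scores from 4.61 to 10.7 and replicate 2 scores from 8.29 to 35.2. The highest in rank lay 450 bp inside Ccdc85c, near Ccnk, the cyclin partner of Cdk12 and Cdk13, with 8.65 and 28.6. At Espn, an actin-bundling protein, and Tnfrsf25, the death receptor DR3 that is expressed on T cells, scores were 8.34 and 13.4 with the summit 478 bp inside Espn. At Rab5c and Hspb9, the only convergent site between its genes, they were 6.64 and 17.8. The remaining sites were at Uggt2 and Dnajc3 (10.7 and 9.66), Ap1g2 and Thtpa (8.34 and 9.94), Aph1a, a subunit of gamma-secretase, and Car14 (5.02 and 35.2), and Rhof and Tmem120b (4.61 and 8.29). The second end was 381 bp to 820 bp from these 7 summits, so none sat close to both stops.

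By gene function, the comparison was with the 6864 coding genes that have another coding end within 2000 bp, of which 458 were at a two-end summit (6.67%). This background pools all orientations and end distances. Mitochondrial ribosomal protein genes had the highest share of any list tried, 9 of 50 (18%, 9.77 to 30.8%). That interval includes the 10.3% of divergent pairs with a shared summit, a share counted by pairs rather than genes. The list was not compared with genes of like arrangement. They were Mrpl30, Mrpl10, Mrpl44, Mrps16, Mrps18c, Mrpl32, Mrpl38, Mrpl43 and Mrpl13. Mrpl10, with its partner Lrrc46, scored 17.0 and 25.02, and Mrpl44, with Wdfy1, scored 15.7 and 20.2. Aminoacyl tRNA synthetases, which charge tRNAs with amino acids, followed with 3 of 19 (15.8%, 5.52 to 37.6%). Yars, the tyrosine enzyme, scored 32.8 and 41.0 beside S100pbp, and Fars2, the mitochondrial phenylalanine enzyme, scored 31.0 and 38.2 beside Lyrm4, a factor of iron-sulphur cluster assembly. Wars, the tryptophan enzyme, scored 7.64 and 10.8 beside Wdr25. The intervals of all other lists included 6.67%, as did that of the synthetases.

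Lists for other parts of gene expression lay near the background. RNA polymerase and general transcription genes had 6 of 69 (8.70%), among them Ints12 beside Gstcd (9.86 and 13.6), Taf11 beside Anks1 (8.72 and 11.6) and Taf6 beside Cnpy4 (6.59 and 11.6). Cytosolic ribosomal proteins had 4 of 41 (9.76%), among them Rplp2 beside Pidd1 (31.1 and 54.2), Rpl37 beside Card6 (9.50 and 10.4) and Rps18 beside Vps52 (6.16 and 8.15). Splicing and mRNA processing genes had 4 of 49 (8.16%), among them Hnrnpul1 beside Axl (13.2 and 22.5), Hnrnpc beside Rpgrip1 (13.2 and 11.3) and Prpf31 beside Tfpt (5.10 and 7.06). Genes of tRNA and rRNA modification had 4 of 42 (9.52%), among them Mettl8 beside Dcaf17 (14.3 and 16.7). That list is defined by name and does not hold every gene of the role. The tRNA modification genes Tyw3, Qtrt2, Adat2 and Dtwd1 were at two-end summits but not counted in it. The DEAD and DEAH box helicases, genes named Ddx or Dhx, had 2 of 27 (7.41%), both of the DEAH group, Dhx38 beside Txnl4b (28.1 and 67.0) and Dhx29 beside Mtrex (21.2 and 24.4). Respiratory chain and ATP synthase genes had 4 of 63 (6.35%), among them Sdha, a subunit of succinate dehydrogenase, beside Ccdc127 (13.2 and 18.1), and Ndufb3, a subunit of complex I, beside Fam126b (8.34 and 10.5).

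For cell upkeep, the proteasome list had 2 of 27 (7.41%), Psmb3 beside Pcgf2 (11.99 and 40.2) and Psma2 beside Mrpl32 (5.10 and 9.60). Chaperones had 1 of 26 (3.85%), Cct6a of the TRiC chaperonin, which was at 2 sites, with Sumf2 (22.2 and 39.5) and with Psph (11.9 and 14.0). Vesicle transport had 2 of 23 (8.70%), Sec23a of the COPII coat beside Gemin2 (7.53 and 22.03) and Rab5c. DNA replication and the cell cycle had 2 of 28 (7.14%), Cdk2 and Mcm7, a subunit of the replicative helicase, beside Ap4m1 (7.25 and 8.66). DNA repair had 1 of 40 (2.50%), Rad51c of homologous recombination beside Tex14 (23.9 and 42.8). The chaperone, vesicle transport, DNA replication and cell cycle, and DNA repair lists do not hold every gene of their role. Dnlz, Rab5b and Kntc1, named above, were at two-end summits but not counted in them. Nor were the cell cycle gene Mad1l1 or the repair genes Slx1b, Rad9b, Dclre1a, Poll, Helq, Tdp1 and Poln. The low share of the repair list thus describes that list and not DNA repair genes as a whole. Of the families defined by name, transmembrane protein genes had 9 of 104 (8.65%), led by Tmem143 beside Syngr4 (18.4 and 49.2), and coiled-coil domain genes had 8 of 69 (11.6%), led by Ccdc191 beside Qtrt2 (14.4 and 25.6). Histone genes had 2 of 55 (3.64%), H1f4 and H2bc6, which share 1 site (5.10 and 6.07). Numbered Zfp genes, whose family holds many of the KRAB proteins that recruit KAP1, had 4 of 73 (5.48%). Of these Zfp942 and Zfp943 share 1 site (7.64 and 18.4), and Zfp653 lay beside Ecsit (4.19 and 9.88). Genes of KAP1 silencing partners had 0 of 10, with an interval up to 27.8%.

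Lists of cell identity were small in this comparison. None of 8 regulatory T cell signature genes with a neighbouring coding end was at a two-end summit (0%, interval up to 32.4%), and 1 of 7 T cell identity genes was. That gene was Lat, the adaptor that carries the T cell receptor signal, with the summit 201 bp inside its start and 556 bp from the stop of Spns1 (4.61 and 8.76). The lists of B cell, myeloid, erythroid and neuronal genes had 0 of 2, 0 of 2, 0 of 2 and 0 of 6, and Hox genes and olfactory receptors 0 of 13 and 0 of 19. A summit list does not measure expression, so it says nothing of the purity of the cells.

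Several members with known roles in lymphocytes were named after their values were seen. The summit at Il18r1 and Il1rl1, which encode receptor chains for interleukin 18 and interleukin 33, lay 27 bp inside the Il18r1 start (6.16 and 11.2). Nfkbie, an inhibitor of NF-κB, shared a site with Slc35b2 (15.7 and 23.5). Stat2 and Irf9, which act together downstream of type I interferon, were at separate sites, Stat2 with Apof (21.1 and 17.7) and Irf9 with Rnf31, the catalytic subunit of the linear ubiquitin ligase (5.10 and 7.15). Trp53, the tumour suppressor p53, shared its site with Wrap53 (7.25 and 6.77), with the summit 794 bp inside Wrap53. These sites ranged from the upper to the lower part of the members' scores.

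The promoter windows were searched on both strands for the letters of 15 motifs. A window held the summit itself at 84 of the 241 sites, in 119 windows of 109 genes. Both genes of a pair can have a window over the same summit, and a gene can have several starts. The same summit and letters can therefore be counted more than once, and the intervals over windows do not allow for this. The ETS letters CCGGAAG, the core bound by many ETS family proteins, were in 44 of the 119 windows (37.0%, 28.8 to 45.9%), against 2385 of all 20085 coding gene windows (11.9%). Windows with a single-end summit were at 134 of 411 (32.6%, 28.3 to 37.3%), an interval that overlaps, and windows of all genes in divergent pairs, bound or not, were at 23.1%. The letters lay a median of 45 bp from the two-end summit, and within 50 bp in 25 of the 44 windows. For single-end summits the median was 75 bp, with 48 of 134 within 50 bp. The CREB/ATF letters TGACGTCA were in 6.72% of the 119 windows (3.45 to 12.7%) against 2.30% of all, and the NRF1 letters GCATGCGC in 9.24% (5.24 to 15.8%) against 3.55%. For CREB/ATF the share was 5.11% in windows with a single-end summit and 3.34% in windows of divergent genes, which is below the interval. For NRF1 these shares were 8.27% and 5.35%, both inside the interval.

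Of the other letters, those of TATA stood below their background. TATAAA was in 4.20% of windows with a two-end summit (1.81 to 9.46%) against 12.7% of all windows. The interval included the 6.57% of windows with a single-end summit and the 6.37% of windows of divergent genes. The NF-Y letters CCAAT, at 43.7% against 38.1%, and the SP/KLF letters GGGCGG, at 52.9% against 47.0%, had intervals that included the share of all windows. So did the letters of YY1 (AAGATGGCG, 3.36% against 1.83%), ZNF143 (CTACAATTC, 0% against 0.513%), the E-box (CACGTG, 5.88% against 7.89%), RUNX (TGTGGTT, 4.20% against 4.77%), the forkhead family of Foxp3 (TGTTTAC, 2.52% against 3.04%), STAT (TTCNNNGAA, 8.40% against 7.78%), CTCF (CCACNAGGG, 3.36% against 1.45%) the B box of tRNA genes (GTTCGANTC, 0.840% against 0.204%) and AP-1 (TGANTCA, 2.52% against 7.06%, with the interval reaching 7.15%). Median GC content was 59.3% in the 119 windows and 57.0% in all. The ratio of observed to expected CpG was 0.855 (quartiles 0.724 and 0.990) against 0.586 in all windows, 0.794 in windows with a single-end summit and 0.803 in windows of divergent genes. A match describes letters only and is not evidence that a factor was bound.

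**Figure D4:**
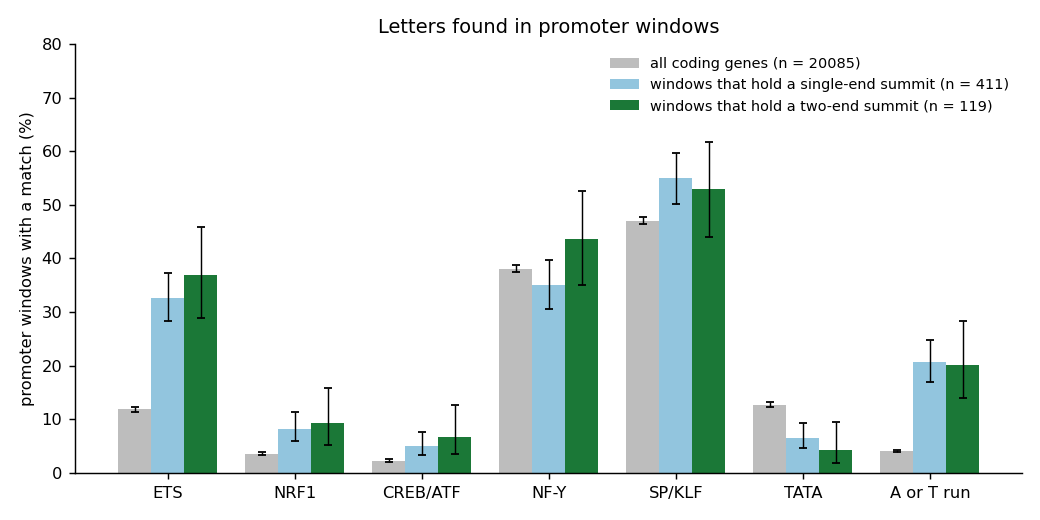
Share of promoter windows, in percent, that hold the letters of 6 motifs on either strand or a run of at least 10 A or T. Bars are all coding gene windows, windows holding a single-end summit and windows holding a two-end summit, with Wilson 95% intervals. The ETS letters and the runs are more frequent in both sets of windows with a summit than in all windows.

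Runs of A or T, seen in the printed windows and counted afterwards, went with the strength of the summits. A run of at least 10 was in 24 of the 119 windows with a two-end summit (20.2%, 13.9 to 28.3%) and in 85 of 411 with a single-end summit (20.7%, 17.0 to 24.9%), against 819 of all 20085 windows (4.08%). Windows of genes at two-end summits that themselves held no summit of either list were at 3.89%. Windows with a summit of replicate 2 alone were at 138 of 357 (38.7%, 33.8 to 43.8%), and those with a summit of replicate 1 alone at 1 of 89 (1.12%, 0.199 to 6.09%). The lists thus differed in how often their unshared summits lay by a run.

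Of the 84 members in a window, the 18 beside a run had replicate 1 scores from 6.16 to 59.0 with a median of 24.2, and replicate 2 scores from 11.2 to 109.1 with a median of 38.7. The other 66 had 1.48 to 43.7 with a median of 6.16, and 3.35 to 67.0 with a median of 8.19. Values overlapped, but the medians were far apart in both replicates. Of the 20 highest-ranking members 11 were in a window, and 8 of those had a run. The printed windows in which runs were first seen had been chosen by score rank, and their sites are counted here. These comparisons of scores are therefore not independent of how the runs were found. Among single-end summits, none of them printed, the replicate 1 median was 15.9 beside a run and 7.25 without. In replicate 2 these medians were 37.0 and 8.34. Among genes named above, the sites of Mrpl30, Mrpl10, Yars and Il18r1 were beside a run. Those of Fars2, Mrps16, Mrps18c and Mrpl43 were in windows without one. Read on the strand where the run is A, the summit lay a median of 59.8 bp to the 3′ side of the run's centre, and on that side in 17 of 18 cases, with Creb3 and Tln1 as the exception at -220 bp. Single-end summits were on that side in 80 of 82 cases, with a median of 58.8 bp. The ETS letters were in 6 of 24 windows with a run (25%, 12 to 44.9%) and 38 of 95 without (40%, 30.7 to 50.1%).

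Per the labels, the libraries were made with the DNA SMART ChIP-Seq kit, a method that adds a tail of one base to single-stranded fragments and copies them from a primer of the complementary base. Its part in the summits by runs was not tested, since no list of input summits was analysed here. Leaving aside the 18 members with a known run, 223 remained, of which 101 were divergent, 54 tandem and 7 convergent. Only 84 members could be searched for runs. The 223 may therefore include other sites beside a run, and these counts cannot show the orientations of sites without one.

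**Figure D5:**
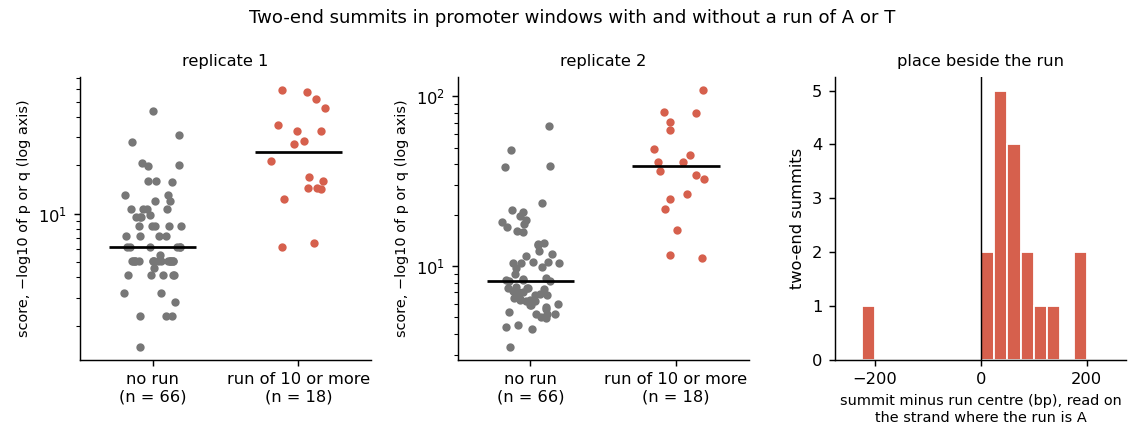
Scores of the 84 two-end summits that lie in a promoter window, in replicate 1 and replicate 2 (log axes), for windows without and with a run of at least 10 A or T, with lines at the medians of 6.16 and 24.2 and of 8.19 and 38.7. The right panel gives the distance in bp from the run's centre to the summit on the strand where the run is A, above 0 at 17 of 18 sites.

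Other features near the members were counted last. Another shared summit lay within 10000 bp of 55 of the 241 (22.8%, 18 to 28.5%), against 27.8% of single-end summits (25.6 to 30.1%) and 31.0% of those at no coding end (29.9 to 32.2%). The first interval overlaps the second and not the third. The end of a noncoding gene lay within 1000 bp of 15 members (6.22%), against 14.6% of single-end and 7.60% of the remaining shared summits. For long noncoding RNA genes these shares were 4.98%, 11.9% and 5.57%. Of the 458 genes 16 (3.49%) had a provisional name, of the form Gm with a number or ending in Rik. The share over all coding genes was not counted. Without such genes, 219 of 4560 neighbouring end pairs had a shared summit (4.80%), against 234 of 5055 with them (4.63%).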

How the data were processed

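KAP1 ChIP-seq was analysed in 2 samples of mouse regulatory T cells. Per the labels' protocols, sonicated chromatin was made into libraries with the DNA SMART ChIP-Seq kit. The submitters' processing notes name mm10 as the build and list MACS2 2.2.1, Bowtie2 2.2.9 and Picard 2.1.1. The settings, control and threshold were not given in the sources used here. The authors deposited 1 summit list per sample, with a −log10 score of either p or q, and which of these is not stated. Scores were used only within a list. Positions are 1-based.

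Gene ends came from the RefSeq gene table of GRCm38.p6, which records no strand. The strand came from the RefSeq promoter table for 16457 of 20665 coding genes on chromosomes 1 to 19, and starts and stops were counted for these only. Neighbouring ends were those of different coding genes at most 2000 bp apart. Gene overlap was taken from the lowest and highest coordinates.

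Shares have Wilson 95% intervals, which cover counting error only. There is 1 group of 2 samples, so no test was made. The lists hold no read depth. The members, the 26 gene lists (the family lists are defined by name) and the rules were chosen with earlier results of these data known. The lists, those defined by name included, may leave out genes of the same role. Sites named are the first 12 by mean percentile rank, the first 3 of each orientation, the 3 shortest and longest spacings, the site with 3 genes, up to 3 genes per list, the 3 nearest the threshold on each side and the 3 lowest, and any others are stated to be later choices. One site just outside the threshold is not reported here. The runs of A or T and their minimum of 10 were chosen after the sequences were seen. No sequence was available outside promoter windows, so motifs were searched only there. Python 3.11.15, NumPy 2.4.6, pandas 2.3.3, SciPy 1.17.1 and matplotlib 3.10.9 were used. The counting was tested on simulated data.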

Additional observations from a re-analysis of the deposited data

How the results depend on the processing

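Divergent pairs had a higher share with a summit than tandem pairs, and tandem than convergent, under every alternative run over all end distances together, although the shares themselves moved. Among ends above 500 and up to 1000 bp apart the order of the first 2 turned, with 5.26% of divergent and 6.20% of tandem pairs, and their intervals overlapped in each range of distance. With 500 bp around gene ends the members numbered 129 (1.69% of shared summits), and 3.63% of all, 7.5% of divergent and 0.132% of convergent pairs had a summit. With 2500 bp these values were 523, 6.84%, 6.31%, 12.5% and 3.16%. With both scores at or above the list median they were 130 members and 2.55% of all, 5.58% of divergent and 2.61% of tandem pairs, with median scores of 12.2 and 18.6. With replicate 2 reduced to its 8862 highest scores they were 95 members and 1.90% of all, 4.25% of divergent, 1.80% of tandem and 0.266% of convergent pairs, with median scores of 15.7 and 26.4. With genes that overlap left out, 2.34% of shared summits were members and 5.42% of pairs had one. Over the lists of replicate 1 alone and replicate 2 alone, the ranges were 266 to 516 members, 0.653 to 3.03% of summits, and 5.12 to 10.1% of all, 12.1 to 19.6% of divergent, 5.50 to 9.56% of tandem and 0.620 to 4.69% of convergent pairs. The median scores were then 7.26 for replicate 1 and 9.87 for replicate 2. The share of windows with a run was 12.6% for runs of at least 15. No paired analysis was possible because the result comes from no test. Read depth is unknown, strand is missing for part of the genes, and sequence was at hand for 84 members.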

Other observations

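On chromosome X, which the rule left out, 68 summits were shared and 1 lay at 2 coding ends, and 1 of 114 neighbouring end pairs had a shared summit. Chromosome 18 held 1 member and 458 neighbouring end pairs. Without it, 233 of 4597 pairs had a shared summit (5.07%).

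At the 10 pairs with 2 members the sites often differed in score. At Rsrc2 and Kntc1 the summit nearer the Rsrc2 start scored 35.8 and 48.9, and the summit at position 123750320 of chromosome 5 scored 9.50 and 10.1. At Ccni and 2010109A12Rik the scores were 15.9 and 25.1 at position 93205781 and 8.34 and 6.23 at position 93206504 of chromosome 5. At Madd and Nr1h3, a liver X receptor gene, the scores were 7.64 and 7.40 at one site and 5.10 and 5.02 at the other.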
